A study of Sus scrofa with 23 samples.

Results

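The transforming growth factor beta (TGF-beta) feedback genes examined here are SKIL, SKI, KLF10, SMAD7, SMAD6, SMURF1, SMURF2, TGIF1 and BAMBI. They were taken by symbol from the authors' table that pairs transcripts with genes, and they are 9 of 26687 genes. SKIL and KLF10 were put on the list because their RNA is higher in cystic fibrosis (CF) pigs. For these 2 genes the values of CF against the other labels are therefore given as a description, without a test. The study asked how loss of CFTR, the chloride and bicarbonate channel that is defective in cystic fibrosis, changes metabolism before disease appears, and kidney cortex RNA was one of its readouts. Total RNA was depleted of ribosomal RNA and sequenced in 23 newborn pigs, 1 library per pig. By genotype label, 11 pigs were CFTR-/- (CF), 6 were CFTR+/- (HET) and 6 were CFTR+/+ (WT), and HET and WT together form the 12 non-CF pigs. The labels give neither litter nor sex, and no treatment. Differences between labels are on the log2 scale, and adjusted p values are from edgeR's quasi-likelihood test over all genes unless another tool is named. P values measure the spread between these pigs and take each pig as independent, although littermates could not be identified.

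TGF-beta ligands bind a pair of receptor kinases that phosphorylate SMAD2 and SMAD3. These join SMAD4, enter the nucleus and switch on target genes, and several of those targets shut the pathway down again. SMAD7 and SMAD6 occupy the receptors, SMURF1 and SMURF2 mark receptors and SMADs for degradation, SKIL, SKI and TGIF1 repress SMAD-bound genes, and BAMBI is a receptor without a kinase. In the kidney the pathway is known above all for its part in fibrosis, and the related bone morphogenetic proteins (BMPs) for their part in nephron development.

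The libraries held 32901281 to 52952273 estimated counts. Counts of the 9 genes ran from 652 to 6776 per library. CFTR itself went against a simple reading of the labels. Its RNA ran from 1.27 to 3.67 CPM (counts scaled to TMM-adjusted library sizes) in WT, 9.41 to 17.5 in HET and 12.5 to 23.5 in CF, and groups are therefore named by their labels. The libraries fell into a first set (pigs 1 to 6 and 12 to 18, with 6 CF, 3 HET and 4 WT) and a second set (pigs 7 to 11 and 19 to 23, with 5 CF, 3 HET and 2 WT) on the second axis of a scaling of all genes. The labels name no batch. No library stood apart as a duplicate of another. Proximal tubule markers summed to between 6975 and 13813 CPM and podocyte markers to between 699 and 1218 CPM, and no marker was at 0 in every library. Of 45 kidney, stroma, blood and adrenal markers tested, 0 passed an adjusted p of 0.05 for CF against non-CF with edgeR. The unadjusted p was under 0.05 for 8 of them, beside 13.7% of all genes. DESeq2, which gave no adjusted p for 4 of the markers, called 4 others (beside 3.13% of the genes it tested). Of these CALB1, SLC12A1 and SLC12A3, markers of the loop and distal tubule, were lower in CF, while UMOD, the other marker of that list, was at 0.28 on the log2 scale, and ATP6V1B1, a collecting duct marker, was higher. Of the 4 collecting duct markers 2 had a log2 fold change above 0 and 2 below it, with AQP2 at -0.24 (adjusted p = 0.712) and AQP3 at -0.20 (adjusted p = 0.607). In bulk tissue, fewer cells of a type and less RNA per cell cannot be told apart.

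The genes lie apart in the genome. On Sscrofa11.1, SKIL is at chr13:109029831-109059176 on the plus strand, KLF10 at chr4:34430132-34435990 on the plus strand and SMAD7 at chr1:98512800-98543924 on the minus strand. SMAD6 is on the same chromosome at chr1:164652602-164735084, and SKI (chr6:64188265-64242596) and TGIF1 (chr6:103226395-103234591) share chromosome 6. SMURF1 (chr3:6037732-6142569, minus strand) overlaps LOC110259850 on the opposite strand. The library kit marked strand, but the strand setting of the pseudoalignment is not given in the sources used here, so the values of both genes are uncertain where their exons overlap. SMURF2 is at chr12:14368683-14492129 and BAMBI at chr10:40053368-40058590. All 9 are protein-coding.

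The 250 bases before the annotated start were read from the RefSeq genome (Sscrofa11.1) for the genes that the results below turn on. They are shown because SMAD complexes are known to bind the letters CAGAC and the palindrome GTCTAGAC. Both strands were searched, the strand shown is that of the gene, and capitals mark matches to either.
SKIL, chr13:109029581-109029830, plus strand: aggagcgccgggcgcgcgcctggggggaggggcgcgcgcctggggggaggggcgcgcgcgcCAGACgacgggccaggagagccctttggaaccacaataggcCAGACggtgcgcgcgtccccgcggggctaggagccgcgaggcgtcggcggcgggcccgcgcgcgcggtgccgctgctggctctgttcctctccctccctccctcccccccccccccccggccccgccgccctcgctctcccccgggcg
SMAD7, chr1:98543925-98544174, minus strand: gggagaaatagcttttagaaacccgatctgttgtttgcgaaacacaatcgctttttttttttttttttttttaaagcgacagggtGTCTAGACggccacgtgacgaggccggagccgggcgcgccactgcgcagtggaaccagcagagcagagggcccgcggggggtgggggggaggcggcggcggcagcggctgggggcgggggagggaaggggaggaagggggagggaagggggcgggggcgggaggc
SMURF2, chr12:14368433-14368682, plus strand: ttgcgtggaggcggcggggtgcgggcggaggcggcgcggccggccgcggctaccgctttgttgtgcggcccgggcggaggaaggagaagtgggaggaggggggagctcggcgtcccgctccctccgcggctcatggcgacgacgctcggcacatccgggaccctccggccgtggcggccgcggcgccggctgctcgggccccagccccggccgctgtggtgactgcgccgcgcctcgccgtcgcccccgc
PMEPA1, chr17:58054330-58054579, minus strand: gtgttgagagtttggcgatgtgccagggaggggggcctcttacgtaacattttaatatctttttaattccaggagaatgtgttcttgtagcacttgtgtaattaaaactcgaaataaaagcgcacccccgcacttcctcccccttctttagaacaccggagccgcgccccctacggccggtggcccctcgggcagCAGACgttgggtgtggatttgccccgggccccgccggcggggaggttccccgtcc

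The SMAD7 window held GTCTAGAC 1 time, from base -165, counted from the first base before the start as -1. Of 19548 windows of this length, 32 (0.164%) held it. None of the other 8 feedback genes did. The letters CAGAC were in 39.0% of all windows and in 3 of the 9 feedback genes, at -189 and -148 in SKIL, at -237 and -219 in TGIF1 and at -194 in BAMBI. The target PMEPA1 held CAGAC at -55. The longer CAGACA was in 12.8% of all windows and among the 9 genes only in TGIF1. The GC-rich form GGCGCC was in 16.1% of all windows and in 5 of the 9 genes, namely SKI, KLF10, SMURF1, SMURF2 and BAMBI. CAGACA is CAGAC with 1 more letter, and GTCTAGAC shares AGAC with CAGAC but does not hold it. A match of letters is a description of the window and not a measured binding site.

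Levels can be compared between genes only per length of transcript, as TPM, the authors' estimate per length and per library total. In the WT libraries BAMBI had the highest level of the 9, at 50.3 to 55.8 TPM with a median of 54.6. TGIF1 followed with a median of 26.8 TPM (24.0 to 33.5). The WT ranges of these 2 genes did not overlap each other or those of the rest. KLF10 (median 17.5 TPM, 13.9 to 22.3), SKI (16.2 TPM, 13.8 to 18.9), SMURF2 (13.5 TPM, 11.2 to 14.7), SKIL (12.8 TPM, 9.61 to 14.1) and SMAD7 (11.2 TPM, 10.5 to 12.7) came next, and each of these 5 ranges overlapped its neighbour's. SMURF1 (6.72 TPM, 5.69 to 8.34) and SMAD6 (3.53 TPM, 2.88 to 4.29) were lowest and did not overlap. In the CF libraries the medians of KLF10, SMAD7 and SKIL were 26.2, 18.1 and 16.9 TPM. BAMBI, the pseudoreceptor, was still the highest there at a median of 54.0 TPM, and SMAD6 the lowest at 3.77 TPM.

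SKIL, which codes for the SMAD corepressor SnoN, had 85.8 to 165 CPM in CF with a median of 112. It had 60.8 to 81.2 CPM in HET (median 70.9) and 67.9 to 83.4 CPM in WT (median 81.5). Every CF library lay above every non-CF library, and CF pigs 1 and 7 were highest while CF pigs 2 and 3 were nearest the non-CF range. SKIL was the only one of 20921 genes (0.00478%) whose CF and non-CF CPM did not overlap in this direction. Since SKIL was chosen for being higher in CF, nothing is read from that count. Its description is a log2 fold change of 0.63 (SE 0.0959) against non-CF, 0.56 (SE 0.118) against WT and 0.71 (SE 0.119) against HET. Of its 2 annotated transcripts the one of 7166 bases took a median of 94.8% of the gene's counts in CF, 93.5% in HET and 93.4% in WT.

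SKI, the founding relative of SKIL and a corepressor of the same SMADs, gave 62.2 to 119 CPM in CF (median 76.8), 51.4 to 84.7 in HET (median 76.7) and 59.2 to 90.7 in WT (median 69.7). Only CF pigs 1 and 7 exceeded the highest non-CF library, and the medians of CF and HET were nearly equal. Against non-CF it stood at 0.15 on the log2 scale (SE 0.103, adjusted p = 0.570), with a 95% interval from -0.06 to 0.36. It was 0.08 without CF pig 1, 0.02 without CF pigs 1 and 7, and 0.23 (adjusted p = 0.0175) with a GC index of each library, described with the correlations below, as a term in the fit.

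TGIF1, a homeobox corepressor that recruits histone deacetylases to SMAD2, gave 35.0 to 59.0 CPM in CF (median 43.0), 33.8 to 40.4 in HET (median 37.3) and 33.9 to 40.0 in WT (median 35.8). In 8 of 11 CF libraries it was above every non-CF library, and CF pigs 4, 8 and 10 lay within the non-CF range. The log2 difference from non-CF was 0.28 (SE 0.0741, adjusted p = 0.0755, interval 0.13 to 0.44). DESeq2 gave the same fold change with an adjusted p of 0.0210, and edgeR passed the threshold without CF pig 4 (0.0397) or CF pig 10 (0.0463). The adjusted p was 0.174 with limma-voom, 0.110 with the exact Mann-Whitney U test, 0.283 with limma on log2 TPM and 0.153 without CF pigs 1 and 7.

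**Figure D1:**
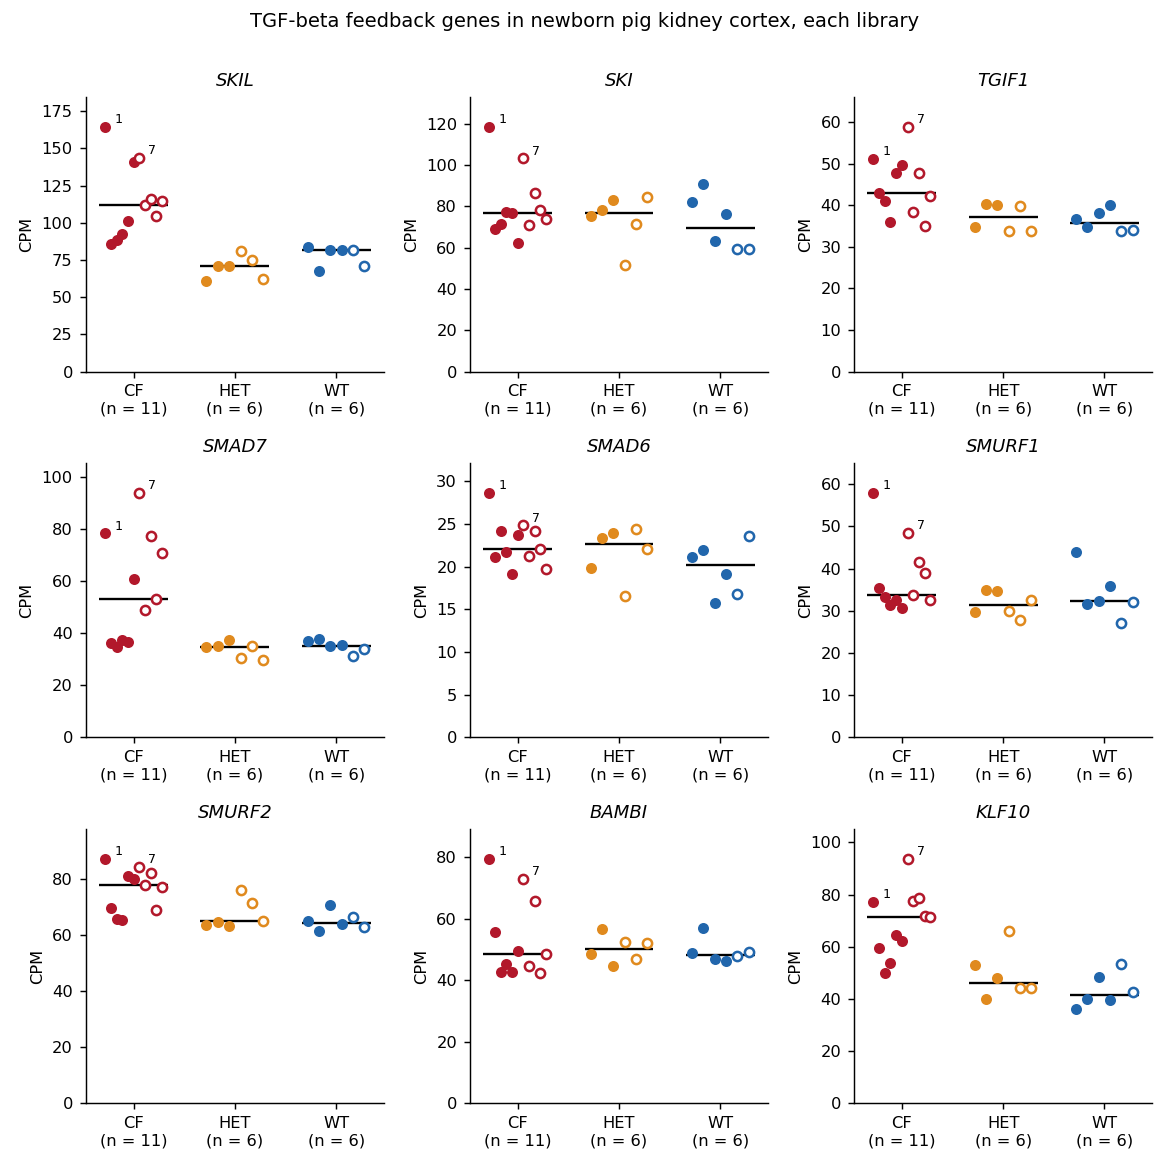
CPM of the 9 feedback genes in each library, by genotype label. Filled points are the first set of libraries, open points the second set, black lines the median of each label, and the numbers mark CF pigs 1 and 7. SKIL is above 85 CPM in every CF library and at most 83.4 in the others, while 4 CF points of SMAD7 sit at the non-CF level.

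SMAD7, the inhibitory SMAD that blocks TGF-beta receptors, rose in CF, but unevenly among the pigs. It had 34.8 to 94.1 CPM in CF (median 53.1), 29.8 to 37.6 in HET (median 34.8) and 31.4 to 38.0 in WT (median 35.3). CF pigs 2, 3, 4 and 5 lay within the non-CF range, and the other 7 CF libraries were all above it. The log2 fold change was 0.73 against non-CF (SE 0.143, adjusted p = 0.0250, interval 0.44 to 1.02), higher than the non-CF median in 10 of 11 CF libraries. The call rested on few libraries, as without CF pig 7 the adjusted p was 0.0505 (log2 fold change 0.63) and without HET pig 21 it was 0.0524 (0.71). Without CF pigs 1 and 7 together it was 0.0702 (0.56). An exact Mann-Whitney U test on CPM gave an adjusted p of 0.1001 (unadjusted p = 0.000981). The study used a Mann-Whitney U test at an unadjusted p under 0.05, on its own gene counts. Of 5 annotated SMAD7 transcripts, the one of 4370 bases took a median of 62.2% of the gene's counts in CF, 63.4% in HET and 62.4% in WT.

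SMAD6, the inhibitory SMAD that acts mainly on BMP signals, showed no such separation. It gave 19.1 to 28.7 CPM in CF (median 22.1), 16.6 to 24.4 in HET (median 22.7) and 15.8 to 23.6 in WT (median 20.2). The groups overlapped almost fully, with 9 of 11 CF libraries in the non-CF range. CF differed from non-CF by 0.14 on the log2 scale (SE 0.0814, adjusted p = 0.485, interval -0.03 to 0.30). The difference between SMAD7 and SMAD6 was not tested.

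SMURF2, a ubiquitin ligase that SMAD7 brings to the receptors, gave 65.6 to 87.5 CPM in CF (median 78.0), 63.4 to 76.3 in HET (median 65.04) and 61.6 to 71.0 in WT (median 64.6). All 11 CF libraries were above the non-CF median and 7 above every non-CF library, but the step was small. Against non-CF it stood at 0.20 on the log2 scale (SE 0.0547, adjusted p = 0.0832, interval 0.09 to 0.32), and DESeq2 gave an adjusted p of 0.0215. The adjusted p was 0.0984 with limma-voom, 0.0963 with the exact Mann-Whitney U test, 0.477 with limma on log2 TPM, 0.167 without CF pigs 1 and 7 and 0.0429 without CF pig 4. SMURF1, its paralog, gave 30.8 to 58.0 CPM in CF (median 33.8), 27.7 to 34.9 in HET (median 31.3) and 27.1 to 44.0 in WT (median 32.2). Only CF pigs 1 and 7 were above the highest non-CF library, WT pig 12. The log2 difference from non-CF was 0.21 (SE 0.0993, adjusted p = 0.347). It was 0.13 without CF pig 1 and 0.08 without CF pigs 1 and 7, where the unadjusted p from edgeR was 0.331.

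BAMBI, which pairs with receptors without signalling, gave 42.4 to 79.5 CPM in CF (median 48.3), 44.5 to 56.4 in HET (median 50.1) and 46.1 to 56.9 in WT (median 48.2). CF pigs 1, 7 and 9 were above every non-CF library and 3 CF libraries were below every one of them. CF differed from non-CF by 0.11 on the log2 scale (SE 0.0984, adjusted p = 0.690, interval -0.09 to 0.31), and it was -0.03 without CF pigs 1 and 7.

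KLF10, a zinc finger factor also known as TGF-beta inducible early gene, had 50.1 to 93.8 CPM in CF with a median of 71.3. It had 40.1 to 66.1 CPM in HET (median 46.2) and 36.3 to 53.3 CPM in WT (median 41.4). In 6 of 11 CF libraries it was above every non-CF library, and the 5 others reached into the range only of HET pig 19 and, for CF pig 3, of HET pig 13 and WT pig 22. As a description, its log2 fold change was 0.58 (SE 0.101) against non-CF, 0.67 (SE 0.124) against WT and 0.49 (SE 0.123) against HET.

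Among the 7 genes other than SKIL and KLF10, 1 (SMAD7) passed an adjusted p of 0.05 for CF against non-CF. These 7 were listed with earlier results of these data known, so the counts and shares below are a description. The background was 73 of 20921 genes (0.349%), of which 51 were higher in CF (0.244%). All 7 had a log2 fold change above 0, as had 49.8% of all genes, and 4 (SMAD7, TGIF1, SMURF2 and SMURF1) had an unadjusted p under 0.05, as had 13.7% of all genes, or 7.35% counting only those higher in CF. DESeq2 called 3 of the 7 and 3.13% of the genes it tested, and edgeR with the GC index as a term called 3 and 1.66%. Their median log2 fold change was 0.20 beside -0.00052 over all genes tested. Of the 7 genes SMURF2 was above the non-CF median in all 11 CF libraries, as were 1.54% of all genes. The median over all genes moved by less than 0.02 on the log2 scale between scalings, and the scaling turned no direction of the 7 genes for CF against non-CF.

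The CF libraries also entered the comparisons with WT alone and HET alone, which therefore share samples with the one above. With the 3 labels kept apart, none of the 7 passed edgeR's adjusted p against WT, where 72 of 21434 genes (0.336%) did, and none passed against HET, where 0 genes did. At an unadjusted p under 0.05 there were 4 against WT (14% of all genes, with 7.55% higher) and 4 against HET (9.83%, with 5.55% higher). SMAD7 had a log2 fold change of 0.70 against WT (SE 0.182, adjusted p = 0.0759) and 0.76 against HET (SE 0.182, adjusted p = 0.193). DESeq2 called SMAD7 and SMURF2 against WT, beside 2.91% of the genes it tested, and SMAD7 against HET, beside 0.312%. TGIF1 was at 0.30 and 0.27, SMURF2 at 0.23 and 0.18, SMURF1 at 0.16 and 0.26, SMAD6 at 0.21 and 0.07, SKI at 0.17 and 0.13 and BAMBI at 0.12 and 0.10 on the log2 scale against WT and HET.

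No difference between HET and WT pigs was detected for any of the 9 genes. This comparison did not choose any of them, so SKIL and KLF10 were tested too. By edgeR 0 of 9 passed, with adjusted p between 0.760 and 0.978, and 0 of 9 had an unadjusted p under 0.05. Over all genes, 1 of 21434 passed (0.00467%), and 8% had an unadjusted p under 0.05. DESeq2 called 0 of the 9 and 0.162% of the genes it tested. SKIL was lower in HET by a log2 fold change of -0.15 (SE 0.132, interval -0.42 to 0.12) and KLF10 higher by 0.18 (SE 0.138, interval -0.10 to 0.47), or by 0.09 without HET pig 19. SMAD7 was at -0.06, with an interval from -0.47 to 0.36. These intervals leave room for differences of the size of those listed for SMURF2 or TGIF1, so likeness of HET and WT is not shown.

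**Figure D2:**
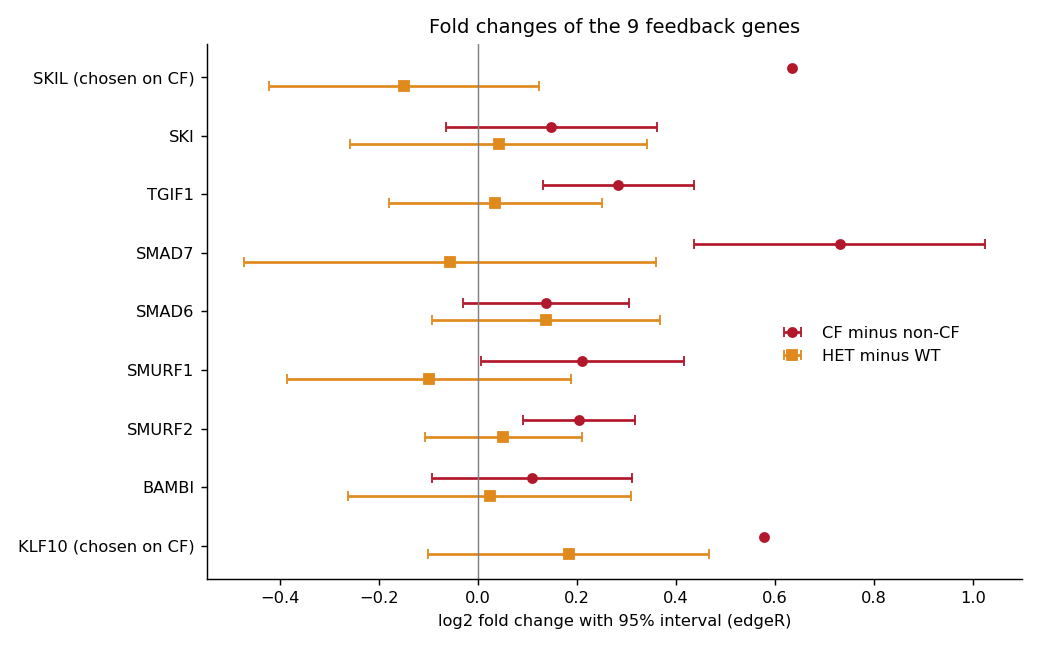
Log2 fold changes from edgeR for CF minus non-CF (circles) and HET minus WT (squares), with 95% intervals. SKIL and KLF10 carry no interval for CF because they were chosen on that contrast. SMAD7 lies at 0.73 for CF and -0.06 for HET, and every HET interval includes 0.

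CF minus non-CF was also taken within each set of libraries. SKIL had 0.60 (SE 0.131) in the first set and 0.67 (SE 0.149) in the second, and KLF10 had 0.49 (SE 0.114) and 0.65 (SE 0.130). SMURF2 (0.21 and 0.19), TGIF1 (0.24 and 0.34), SMAD6 (0.16 and 0.11) and BAMBI (0.08 and 0.15) differed by at most 0.10 between the sets. SMAD7 was at 0.39 (SE 0.165) in the first set and 1.10 (SE 0.190) in the second. Of the first set, CF pigs 1 and 6 were above the non-CF range and CF pigs 2 to 5 were not, while all 5 CF libraries of the second set were above it. SKI (0.02 and 0.34) and SMURF1 (0.09 and 0.39) also had the larger value in the second set. The test of the difference between sets gave p = 0.00956 for SMAD7, or 0.311 after edgeR's adjustment over all genes. For the other 8 genes the adjusted p was between 0.607 and 0.978. Over all genes this test called 4 of 20921 (0.0191%), and 10.1% had an unadjusted p under 0.05.

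**Figure D3:**
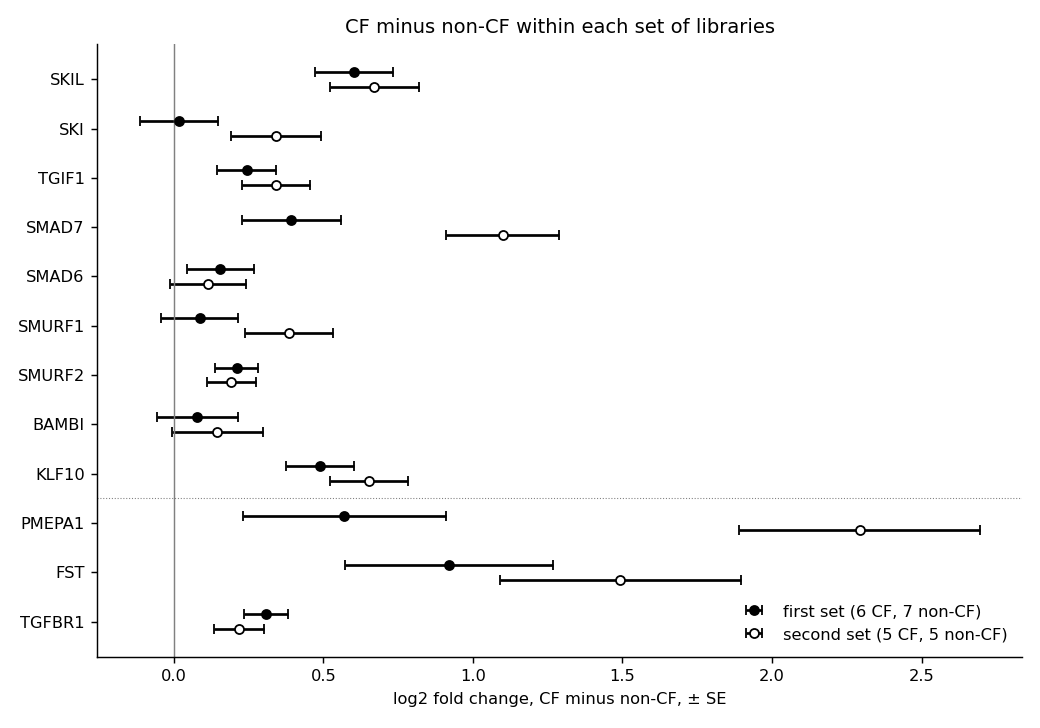
Log2 fold change of CF minus non-CF within the first (filled) and second (open) set of libraries, with SE, for the 9 feedback genes and, under the dotted line, 3 other genes of the pathway. SKIL is at 0.60 and 0.67 and KLF10 at 0.49 and 0.65, and SMAD7 (0.39 and 1.10) and PMEPA1 (0.57 and 2.29) are farthest apart.

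Some of the 9 genes varied together among pigs of the same label. After the mean of each label was removed from log2 CPM, 33 of 36 pairs had a correlation above 0 over the 23 libraries, with a median Pearson r of 0.52. Over all pairs of the 20921 genes 49.3% were above 0, with a median of -0.0055. At least 0.44, the lowest r of a pair that passed below, was reached by 23 of the 36 pairs and by 8.96% of all pairs. By a permutation test within labels, adjusted over the 36 pairs, 16 pairs passed by Pearson's r and 9 by Spearman's rho. SKIL and SMURF2 were the closest pair (r = 0.81, adjusted permutation p = 0.00216; rho = 0.78, adjusted permutation p = 0.00432). Without the 2 libraries farthest from the median of SKIL r was 0.77, and within the library sets it was 0.80 and 0.88. SKIL and SMAD7 had r = 0.74 (adjusted permutation p = 0.0154) and rho = 0.63 (0.0384), with 0.92 and 0.62 within the sets and 0.66 without the 2 farthest. KLF10 and SMURF2 had r = 0.69 (adjusted permutation p = 0.00888) and rho = 0.63 (0.0384), with 0.77 and 0.75 within the sets and 0.59 without the 2 farthest. KLF10 was at r = -0.03 with SKI (adjusted permutation p = 0.885) and at r = -0.30 with SMAD6 (adjusted permutation p = 0.221).

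Much of this common variation rested on CF pigs 1 and 7. CF pig 7 was among the 2 highest libraries in all 9 genes and CF pig 1 in 8 of them. Both were left out after this was seen, and removing libraries that are jointly highest tends to lower such correlations by itself. Without both pigs, 1 of 36 pairs passed, SKIL with SMURF2 (r = 0.74, adjusted permutation p = 0.0212), and KLF10 with SMURF2 was at 0.63 (0.0837). Base composition moved with some of the genes as well. A GC index was taken for each library as the median deviation in log2 CPM of genes whose transcripts are GC-rich minus that of GC-poor genes, and it ran from -0.38 to 0.33 in CF and from -0.33 to 0.33 in non-CF libraries. SKI, whose transcripts are 61.4% G or C, followed this index within labels (r = 0.93), as did SMURF1 (60.2%, r = 0.70) and SMAD6 (58.8%, r = 0.68). BAMBI, with the highest share (64.1%), had r = 0.55, SMAD7 (58.7%) had r = 0.39 and TGIF1 (50.5%) had r = 0.25. SKIL (33.9%, r = -0.0013), KLF10 (44.2%, r = -0.16) and SMURF2 (40.0%, r = -0.17) were near 0 or below it. After the index was also removed, 21 pairs passed, of which 10 were among the first 16. The pair SKI and SMURF1 went from r = 0.75 to 0.39, and SKIL and SMURF2 from 0.81 to 0.82. The part of base composition in these values was not tested further.

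**Figure D4:**
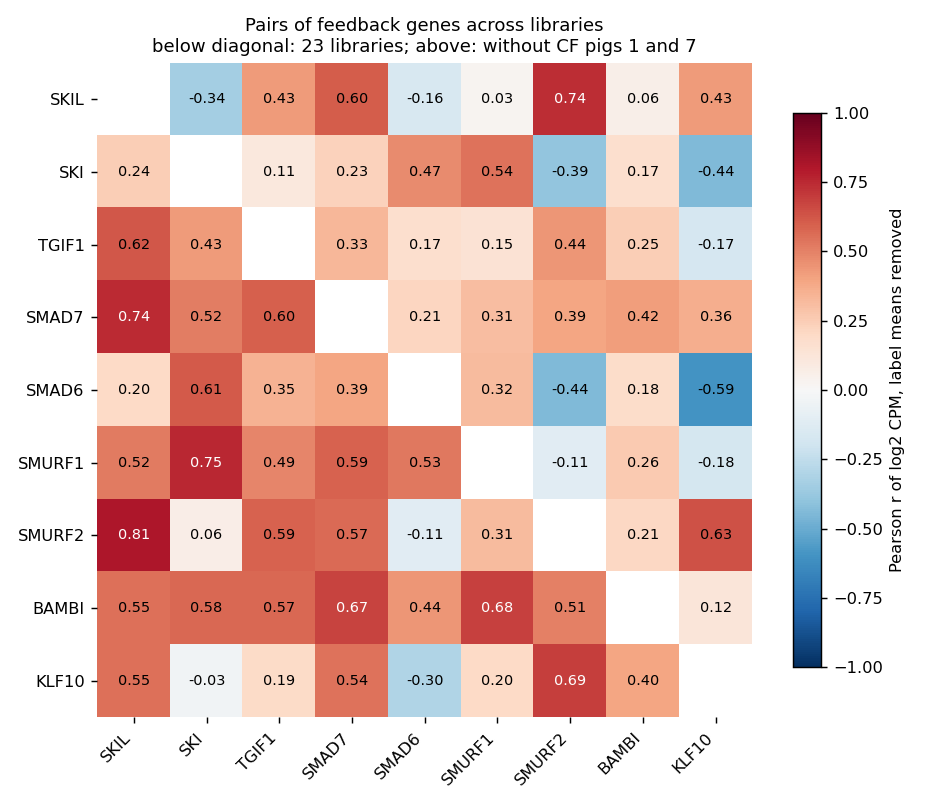
Pearson correlation of log2 CPM between feedback genes after removal of the label means, over 23 libraries below the diagonal and without CF pigs 1 and 7 above it. SKIL and SMURF2 stay at 0.81 and 0.74, while most other pairs fall towards 0 or below it above the diagonal.

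Among all 20920 other genes tested, those whose log2 CPM within labels was most like SKIL over the 23 libraries were PTBP3 (r = 0.88), ACVR1 (0.87), ARID2 (0.86), YAP1 (0.83) and SUSD1 (0.82). PTBP3 codes for an RNA-binding protein, ACVR1 for a BMP and activin receptor, ARID2 for a chromatin remodelling subunit and YAP1 for the effector of the Hippo pathway. Within the library sets PTBP3 had 0.88 and 0.94. Most like KLF10 were LOC100737756 (0.84), LOC100624495 (0.83), NUP88 (0.82), MET (0.81) and SMIM24 (0.80). MET codes for the receptor of hepatocyte growth factor and NUP88 for a nuclear pore protein. SMAD7, added to this search after its values were seen, was closest to PMEPA1 (r = 0.95, with 0.96 and 0.93 within the sets and a rho of 0.82), then SOX4 (0.94), ADGRG1 (0.93), MFAP2 (0.91) and SERTAD4 (0.91). These are the highest of 20920 values each, and they are given as a description.

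The rest of the pathway was described by role from a list of 125 genes, of which 120 could be tested. A gene in more than 1 role counts once. This list too was drawn up with earlier results of these data known, so its counts are a description. For CF against non-CF 3 passed an adjusted p of 0.05, all higher in CF, beside 0.349% of all genes. The 3 were the receptor TGFBR1, the activin antagonist FST and the target PMEPA1. At an unadjusted p under 0.05, 22 were higher and 11 lower, beside 7.35% and 6.36% of all genes. DESeq2 called 10 (these 3 with BMPR1A, FSTL3, KLF9, LDLRAD4, SMAD3, SMAD4 and TWSG1), and 515 of 16459 genes in all (3.13%). It gave no adjusted p for 10 of the listed genes. The median log2 fold change was 0.11, beside -0.00052 over all genes. For HET against WT edgeR and DESeq2 each called 0 of the 120, and 11 had an unadjusted p under 0.05 in edgeR, beside 8% of all genes.

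Of the TGF-beta and activin ligands 0 of 8 passed, beside 0.349% of all genes. At an unadjusted p under 0.05 there was 1 (TGFB3), beside 13.7% of all genes. TGFB3 had a log2 fold change of 0.36 (SE 0.166, adjusted p = 0.340), TGFB2 0.16 (SE 0.0800, adjusted p = 0.372) and TGFB1 0.15 (SE 0.101, adjusted p = 0.560). Of 6 BMP ligands tested 0 passed, and BMP5 and BMP3 were at -0.39 (adjusted p = 0.133) and -0.41 (adjusted p = 0.138). BMP5 was at -0.09 in the first set and -0.78 in the second (p = 0.00388 for the difference, or 0.242 after adjustment), and passed in pigs 7 to 11 and 19 to 23 alone (adjusted p = 0.00539) and without CF pig 4 (0.0407).

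Among 13 receptors TGFBR1, the type I kinase of the TGF-beta receptor, rose. It had 65.1 to 89.9 CPM in CF (median 72.2), 57.3 to 67.97 in HET (median 60.6) and 54.9 to 70.3 in WT (median 61.4). In 8 of 11 CF libraries it was above every non-CF library. Against non-CF it stood at 0.27 on the log2 scale (SE 0.0550, adjusted p = 0.0327), with 0.31 in the first set and 0.22 in the second. On log2 TPM it was 0.09 with an adjusted p of 0.835 by limma, and without CF pigs 1 and 7 the adjusted p was 0.0774. Single libraries decided this call too, since leaving out CF pig 6, 7 or 8, HET pig 14 or 21, or WT pig 16 or 18 raised the adjusted p above 0.05, at most to 0.0678, while the log2 fold change stayed between 0.24 and 0.29. TGFBR2, the type II kinase, was at -0.18 (SE 0.0759, adjusted p = 0.295).

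Of the 6 signalling SMADs 0 passed, beside 0.349% of all genes. All 6 had a log2 fold change above 0, as had 87 of the 120 pathway genes and 49.8% of all genes. SMAD3, which carries the TGF-beta signal to the genome, was nearest at 0.38 (SE 0.0918, adjusted p = 0.0609). In 8 of 36 alternatives SMAD3 passed, among them edgeR with library set as a term (adjusted p = 0.0490). It had 89.6 to 151 CPM in CF (median 103), 74.0 to 102 in HET (median 84.7) and 66.0 to 97.2 in WT (median 86.9), and 6 of 11 CF libraries were above every non-CF library. It was at 0.15 in the first set and 0.68 in the second, with p = 0.00228 for the difference, or 0.203 after adjustment. SMAD4, the shared partner, was at 0.19 (SE 0.0512, adjusted p = 0.0903), and SMAD2 was at 0.01 (SE 0.0521, adjusted p = 0.957).

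FST, which binds and neutralizes activin, was the 1 of 15 extracellular regulators that passed. It had 1.76 to 10.5 CPM in CF (median 3.70), 1.60 to 2.48 in HET (median 1.98) and 1.73 to 3.14 in WT (median 2.39). In 7 of 11 CF libraries it was above every non-CF library, and CF pigs 2, 3, 4 and 5 were not, the same 4 pigs as for SMAD7. The log2 difference from non-CF was 1.19 (SE 0.262, adjusted p = 0.0422), and 0.88 without CF pigs 1 and 7 (adjusted p = 0.118). With limma-voom it was 0.76 (adjusted p = 0.139), and the exact Mann-Whitney U test gave an adjusted p of 0.234.

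Of 17 TGF-beta targets, PMEPA1 rose. PMEPA1, which sequesters SMAD2 and SMAD3 and so is itself a feedback gene, had 30.3 to 242 CPM in CF (median 87.2), 25.3 to 50.2 in HET (median 35.0) and 35.1 to 62.1 in WT (median 42.4). Again CF pigs 2 to 5 were in the non-CF range and the other 7 above it. Against non-CF it stood at 1.496 on the log2 scale (SE 0.318, adjusted p = 0.0403), with 0.57 (SE 0.339) in the first set and 2.29 (SE 0.403) in the second (p = 0.00285 for the difference, or 0.223 after adjustment). The adjusted p of PMEPA1 rose above 0.05 with any 1 of 14 libraries left out (CF pigs 6, 7, 8, 9 and 11, HET pigs 14, 20 and 21 and all 6 WT pigs), at most to 0.0914. That of FST did so with any of the same 14 libraries or CF pig 1, at most to 0.0942. Without CF pigs 1 and 7 PMEPA1 was at 1.21 (adjusted p = 0.101), with limma-voom at 0.99 (adjusted p = 0.125), and the exact Mann-Whitney U test gave an adjusted p of 0.419.

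LDLRAD4, a relative of PMEPA1, was at 0.62 (SE 0.149, adjusted p = 0.0567). It did not pass in the main test, but edgeR with library set as a term called it. CTGF, a matricellular target also named CCN2, was at 0.35 (SE 0.176, adjusted p = 0.389). The matrix genes FN1 and COL1A1 did not pass the test, with FN1 at 0.12 (SE 0.188, adjusted p = 0.854) and COL1A1 at -0.13 (SE 0.231, adjusted p = 0.871). The 17 targets had a median log2 fold change of 0.12.

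Of 19 intracellular modulators 0 passed, with a range of -0.13 to 0.26. RNF111, a ligase that degrades SKIL, SKI and SMAD7, was at 0.13 (SE 0.0441, adjusted p = 0.166), and USP4, a deubiquitinase of TGFBR1, at -0.13 (SE 0.0510, adjusted p = 0.241). Of 7 BMP targets 0 passed. At an unadjusted p under 0.05, 2 were higher and 2 lower, beside 7.35% and 6.36% of all genes. HEY1 was at 0.30 (adjusted p = 0.169) and ATOH8 at -0.30 (adjusted p = 0.176). Of 3 SKI family relatives 0 passed (DACH2 at -0.38, adjusted p = 0.325). Of 11 KLF relatives 0 passed, although KLF9 came close at 0.37 (SE 0.0848, adjusted p = 0.0508), while KLF12 was at -0.19 (adjusted p = 0.209). KLF9 passed in 11 of 36 alternatives, among them edgeR with library set as a term (adjusted p = 0.0405).

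**Figure D5:**
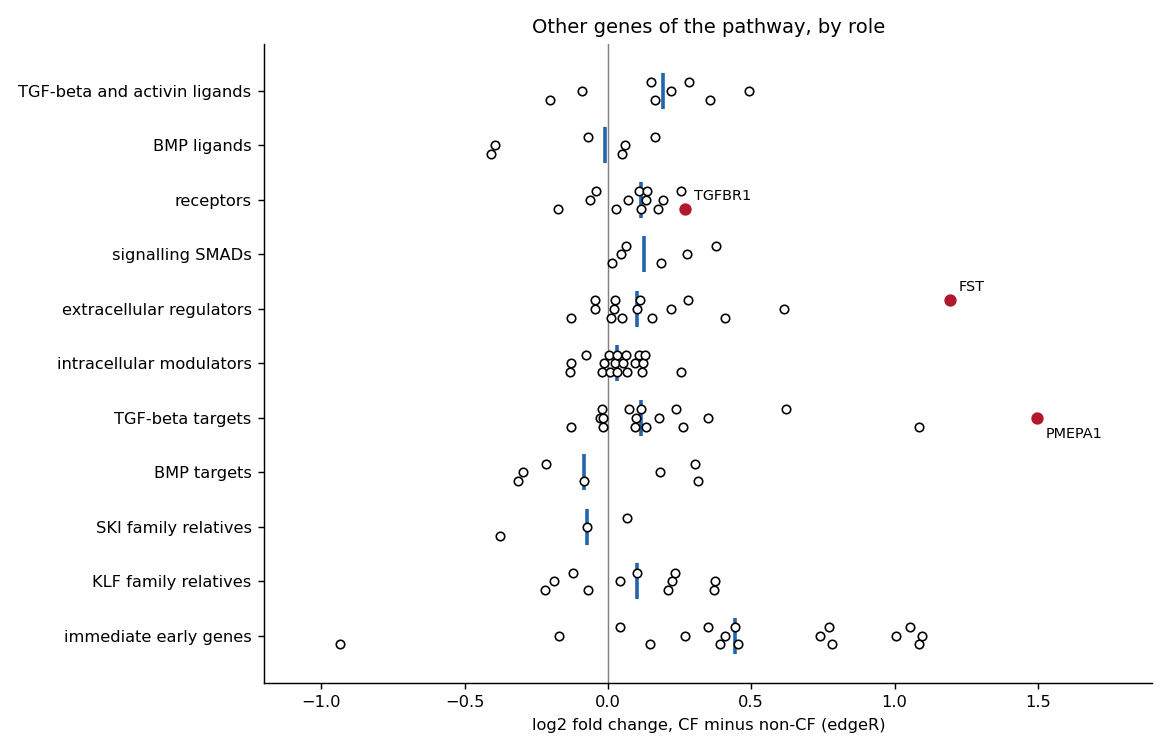
Log2 fold changes of CF minus non-CF for the other genes of the pathway by role. Each point is a gene, red points passed an adjusted p of 0.05, and blue bars are the median of each list. The 3 genes that passed lie at 0.27 (TGFBR1), 1.19 (FST) and 1.496 (PMEPA1).

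Immediate early genes, which cells switch on within minutes of a stimulus, stood apart in some of these libraries. Their summed CPM was 2537 in CF pig 1, 1040 in WT pig 12, 468 in HET pig 20 and 239 to 377 in the other libraries. Of 17 tested 0 passed with edgeR, beside 0.349% of all genes. DESeq2 gave no adjusted p for 3 of them and called 0, beside 3.13% of the genes it tested. In edgeR 4 had an unadjusted p under 0.05, beside 13.7% of all genes. JUN was at 1.09 (SE 0.428, adjusted p = 0.237) and FOSL1 at -0.93 (SE 0.349, adjusted p = 0.212), and JUN was at -0.02 without CF pigs 1 and 7. Without CF pig 1, HET pig 20 and WT pig 12 the log2 fold change was 0.59 for SKIL, 0.52 for KLF10 and 0.69 for SMAD7 (adjusted p = 0.0831). Markers of the loop and distal tubule had a sum of 1082 to 1735 CPM in CF (median 1320) and 1127 to 2152 CPM in non-CF (median 1669), and 3 of 4 were lower at an unadjusted p under 0.05, the 3 that DESeq2 called, while UMOD was at 0.28 on the log2 scale (adjusted p = 0.544). CALB1, a calcium-binding protein of the distal tubule, was among them at -1.40 (SE 0.345, adjusted p = 0.0636), with -0.51 in the first set and -2.30 in the second. It had 16.7 to 127 CPM in CF (median 50.4), 63.1 to 404 in HET (median 133) and 103 to 320 in WT (median 150). CF pigs 2, 3 and 4, which were in the non-CF range for SMAD7, FST and PMEPA1, had the 3 highest CF values of CALB1 (117, 108 and 127 CPM), while CF pig 5, also in that range for those genes, had 40.8 CPM. Stroma markers had 2142 to 4044 CPM in CF and 2009 to 4555 CPM in non-CF. Smooth muscle markers had 220 to 886 and 266 to 519 CPM, and endothelial markers 378 to 565 and 426 to 583 CPM. Collecting duct markers had 249 to 507 and 279 to 396 CPM, immune markers 27.99 to 42.8 and 26.6 to 49.4, erythroid markers 68.5 to 448 and 63.4 to 204, nephron progenitor markers 16.04 to 28.6 and 14.4 to 25.4, and adrenal cortex markers 1.52 to 2.98 and 1.39 to 2.95 CPM in CF and non-CF. The part of these cells in the values of SKIL, KLF10 and SMAD7 was not tested.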

How the data were processed

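Kidney cortex RNA of 23 newborn pigs was analysed at the level of genes. The authors pseudoaligned reads to pig transcripts of Sscrofa11.1 with kallisto and deposited estimated counts per transcript, which are not normalized. In the same deposited files TPM is this estimate divided by effective length, relative to the library total. The deposited table of transcripts, whose gene_id column is an identifier of no unit, was used to sum 77689 transcripts to 26687 genes, and sums were rounded since 64.0% of values were not whole. Pseudoalignment shares reads among similar transcripts, so the split between transcripts of a gene is an estimate.

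The 9 members and all lists were chosen with earlier results of these data known. The main test was edgeR 4.0.16 (R 4.3.3) with TMM, filterByExpr, the quasi-likelihood test and Benjamini-Hochberg adjustment over all genes tested, at 0.05. CF was compared with non-CF over 20921 genes. HET, WT and CF were compared pairwise in 1 fit over 21434 genes. Another fit tested whether CF minus non-CF differed between library sets. CPM used TMM library sizes, and log2 CPM a prior count of 2. Correlations used log2 CPM with label means removed and 100000 two-sided permutations within labels.

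Genes were named by a rule: the 9 members, the 5 genes most correlated with SKIL and with KLF10, CFTR, and of each pathway list the genes under 0.05 or otherwise the 2 with the smallest p. TGFB1, TGFBR2, SMAD2, LDLRAD4, CTGF, FN1, COL1A1, the markers named singly and the genes most like SMAD7 were named after their values were seen. A listed target gene is not reported here and is left out of all list counts. CCN2 and CCN1 carry the symbols CTGF and CYR61 in the annotation. The GC index used 14400 genes with a mean log2 CPM above 2, comparing transcripts above 59.5% with those under 42.4% G or C.

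Alternatives were DESeq2 1.42.0, limma-voom with sample weights, limma on log2(TPM + 0.1) (limma 3.58.1) and an exact Mann-Whitney U test. Further alternatives were other normalizations, no filter, library sets and each library left out. The study also used a Mann-Whitney U test, at an unadjusted p under 0.05, while calls here use the adjusted p. Leaving out CF pigs 1 and 7, leaving out CF pig 1, HET pig 20 and WT pig 12, and the GC index as a term were added after seeing the data. The main edgeR fits, edgeR with library set, DESeq2 for CF against non-CF, limma-voom and the Mann-Whitney U test were tested on simulated data. Limma on log2 TPM, the GC index term, the other normalizations, no filter and DESeq2 with 3 labels were not. Python 3.11.15 with scipy 1.17.1, pandas 2.3.3 and pysam 0.24.0 was used. A count of 0 would allow up to 3 counts, for counting error only. Scaled to library totals without the TMM adjustment, unlike the other CPM values here, this bound is 0.0567 to 0.0912 CPM by library. The closest pair of libraries still differed by 23.8 times the counting variance, so none was taken as a duplicate.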

Additional observations from a re-analysis of the deposited data

Results flagged for a closer look

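Of 56 groups of 6 libraries checked for a library that stands apart, 5 were flagged by Dixon's gap ratio (above 0.625), and chance flags about 1 in 20. BAMBI in WT was highest in WT pig 16, at 56.9 CPM against 46.1 to 49.3 in the other WT libraries (gap ratio 0.710). PMEPA1 in WT was also highest in WT pig 16, at 62.1 CPM against 35.1 to 43.4 (0.692). TGFB2 in WT was highest in WT pig 23, at 18.4 CPM against 14.2 to 15.8 (0.633). JUN in WT was highest in WT pig 12, at 58.7 CPM against 16.1 to 25.1 (0.789). FOSL1 in HET was highest in HET pig 13, at 1.06 CPM against 0.246 to 0.409 (0.800). The 11 CF libraries were too many for this check.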

How the results depend on the processing

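For CF against non-CF, the number of the 7 genes called (1 in the main test, SMAD7) was 3 with DESeq2 (SMAD7, SMURF2, TGIF1) and 3 with the GC index as a term (SKI, SMAD7, TGIF1). Calls over all genes rose with them, from 73 to 515 and 348. It was 0 with the Mann-Whitney U test, with limma on log2 TPM, in pigs 1 to 6 and 12 to 18 alone, without CF pigs 1 and 7, and without CF pig 1, HET pig 20 and WT pig 12, and 0 to 3 with each library left out. Against WT it was 2 with DESeq2 and 0 to 1 with a library left out (1 without CF pig 4), and against HET 1 with DESeq2 and 0 to 0 with a library left out, where the main tests had 0. DESeq2 called 575 and 63 of all genes there, where edgeR called 72 and 0. For HET against WT, and for the difference between library sets, it was 0 under every alternative run.

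Of the 120 other pathway genes, 3 were called. The number was 6 with library set as a term (148 of all genes), 10 with DESeq2 (515), 10 with the GC index as a term (348), 1 with limma-voom (103), 1 with the Mann-Whitney U test (29), 7 in pigs 7 to 11 and 19 to 23 alone (473), and 0 with limma on log2 TPM, in pigs 1 to 6 and 12 to 18 alone, without CF pigs 1 and 7, and without CF pig 1, HET pig 20 and WT pig 12 (8, 0, 4 and 4). With each library left out it was 0 to 7, with 0 without CF pig 6, 7 or 8, HET pig 14 or 21, or WT pig 16 or 18, and 7 without CF pig 4. Upper-quartile scaling split the calls over all genes 48 higher to 53 lower, where TMM gave 51 to 22.

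Of the 36 correlated pairs, 16 passed over all libraries, 0 within either library set alone (13 or 10 libraries), 1 without CF pigs 1 and 7, and 21 with the GC index removed.

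Of the genes that turned, JUN (CF against non-CF) went from 1.09 to -0.017 without CF pigs 1 and 7, and the others were members that turned to values near 0. BAMBI turned to -0.0035 (HET against WT, upper quartile), -0.0047 (CF against non-CF, limma-voom), -0.0052 (Mann-Whitney) and, without CF pigs 1 and 7, to -0.033 (against non-CF), -0.020 (WT) and -0.047 (HET). Without these pigs SKI against HET was at -0.00022. With 1 library left out, BAMBI (HET against WT) ran from -0.0052 to 0.075, SMAD6 (CF against HET) from -0.0043 to 0.10 and SKI (HET against WT) from -0.0030 to 0.13. Of 1603 tested values of single genes under alternatives, 1498 kept direction and side of the threshold. For the genes called for CF against non-CF, calls were lost more often. Of 36 alternatives each, the call was lost in 7 for SMAD7, 12 for TGFBR1, 20 for PMEPA1 and 21 for FST. The causes were not tested. For CF against non-CF SKIL ran from 0.52 to 0.68 and KLF10 from 0.49 to 0.69 over the alternatives run. No paired analysis was possible because the labels do not give litter.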
